A study of Homo sapiens with 10 samples.

Results

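The genes described here are 9 members of the TGF-beta and BMP signalling pathways, measured as mRNA in U2OS cells, a human osteosarcoma line. They were taken by symbol from the deposited gene table: ID1, ID2, ID3, SMAD7, SKIL, TGFBI, TGFB1, TGFB2 and TGFBR1, which are 9 of 26040 symbols. All 9 were found and all 9 passed the filter on low values, which kept the 14955 genes that reached 10 in 3 or more libraries. The study asked how knockdown of ARVCF, a catenin of the p120 family, alters transcription after p53 is activated. All cells carried a stably integrated shRNA lentivirus and were selected in puromycin at 1 µg/ml, in DMEM with serum. The control line expressed a negative control shRNA, and each of 3 shARVCF lines expressed a different shRNA against ARVCF. Nutlin-3a, which blocks the binding of MDM2 to p53, was given at 10 µM for 24 h. The 10 libraries were 1 untreated and 3 treated libraries of the control line, and 3 untreated and 3 treated libraries of the shARVCF lines, 1 of each kind per line. The labels speak of single clones, and the 3 treated control libraries come from 1 control line. Treated control libraries 2 and 3 carry later library numbers than the other 8. No label says that they were separate cultures, so p-values measure the spread between these libraries.

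TGF-beta ligands are secreted in latent form and, after release, bring together type II and type I receptors on the cell surface. The type I receptor phosphorylates receptor SMADs, which enter the nucleus with SMAD4 and switch target genes on or off. Among the early targets are the pathway's own brakes, so the response limits itself. BMP ligands work through related receptors and SMADs, and the ID genes are their classic targets. In bone, both branches guide matrix production and osteoblast maturation.

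The members fall into 4 roles. ID1 (chromosome 20, 31605283 to 31606515), ID2 (chromosome 2, 8678845 to 8684453) and ID3 (chromosome 1, 23557918 to 23559794) encode inhibitors of DNA binding that sequester E proteins. SMAD7 (chromosome 18, 48919853 to 48952052) encodes the inhibitory SMAD that targets the type I receptor, and SKIL (chromosome 3, 170357678 to 170396835) encodes SnoN, a co-repressor of SMAD complexes. TGFBI (chromosome 5, 136028895 to 136063818) encodes an extracellular matrix protein induced by TGF-beta. TGFB1 (chromosome 19, 41301587 to 41353911) and TGFB2 (chromosome 1, 218346235 to 218444619) encode ligands, and TGFBR1 (chromosome 9, 99104038 to 99154192) encodes the type I receptor. Coordinates are hg38 with GENCODE 29 gene models. ID1 has 1 exon in its longest transcript and TGFBI has 17, and the measurement covers exons of the whole gene.

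The promoter stretches below are shown for the 2 members that rose and 2 of the 3 that fell in the control line under nutlin-3a, in the values as deposited. TGFB2, which also fell, is not shown. It alone kept its call after a trend on transcript length and GC content was removed, as given below. The stretches are the bases free of annotated exons within 250 bases upstream of a RefSeq transcription start (GRCh38.p14), written 5′ to 3′ on the gene's strand. Capitals mark matches, on either strand, to the TATA box TATAAA, the CCAAT box, the SMAD box CAGAC, the GC-rich SMAD box GGCGCC and TGACGT, part of the cAMP response element, and neighbouring matches can overlap. The ID1 stretch is chr20:31605039-31605282 and the TGFB1 stretch is chr19:41353923-41354168, on the minus strand. The SKIL stretch is chr3:170357465-170357677, and the TGFBR1 stretch, for 1 of its 8 start sites, is chr9:99104863-99105088.
ID1: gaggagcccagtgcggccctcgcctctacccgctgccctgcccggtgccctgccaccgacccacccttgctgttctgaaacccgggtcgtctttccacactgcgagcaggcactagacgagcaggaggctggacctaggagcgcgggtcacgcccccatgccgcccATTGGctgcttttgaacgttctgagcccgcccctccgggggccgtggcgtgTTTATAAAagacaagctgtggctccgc
TGFB1: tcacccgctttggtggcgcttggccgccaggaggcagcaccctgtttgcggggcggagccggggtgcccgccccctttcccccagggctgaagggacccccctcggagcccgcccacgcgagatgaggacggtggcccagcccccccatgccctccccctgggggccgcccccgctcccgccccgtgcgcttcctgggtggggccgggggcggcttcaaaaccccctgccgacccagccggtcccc
SKIL: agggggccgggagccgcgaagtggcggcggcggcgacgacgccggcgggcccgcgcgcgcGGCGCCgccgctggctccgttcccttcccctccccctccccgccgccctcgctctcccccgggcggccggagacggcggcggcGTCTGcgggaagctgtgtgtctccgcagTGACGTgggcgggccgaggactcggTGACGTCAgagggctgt
TGFBR1: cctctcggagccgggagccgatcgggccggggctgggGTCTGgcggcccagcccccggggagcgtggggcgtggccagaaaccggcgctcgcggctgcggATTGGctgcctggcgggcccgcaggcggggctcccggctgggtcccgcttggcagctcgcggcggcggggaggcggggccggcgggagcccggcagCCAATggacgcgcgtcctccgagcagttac

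ID1 carried a TATAAA match at -31 to -26 and a CCAAT match at -84 to -80, counted from its start, while the TGFB1 stretch held none of the 5 motifs. SKIL carried TGACGT matches at -79 to -74 and -54 to -49, the latter overlapped by a match on the other strand. Over the full 250 bases and all start sites, CAGAC was found in 5 of 9 members, against 38.0% of 35116 RefSeq windows. TATAAA and CCAAT were each found in 3 of 9 members, against 10.7% and 32.0% of windows. TGACGT was found in 2 of 9 members, against 7.1%, and GGCGCC in 3 of 9, against 16.4%. The palindrome GTCTAGAC and a p53 response element were found in 0 of 9 members, against 0.182% and 0.0256%. SMAD7 and TGFBR1 have several start sites and therefore more chances to match than a single window.

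Values are fragments estimated and scaled by the authors, called scaled fragments here, with scaled totals of 17821751 to 19903778 per library. ARVCF itself stood at 291.8 to 343.2 in the untreated shARVCF lines against 617.7 in the untreated control library, and at 1187.6 to 1284.1 against 2375.6 to 2927.8 under nutlin-3a. Its log2 difference under nutlin-3a was -1.08 (limma, adjusted p = 3.14e-06). Untreated, against the lone control library, it was -0.93 and was not called. Of 10 osteoblast and mesenchyme markers, 6 reached 10 in every library, and SP7, BGLAP and IBSP stayed at or below 4.77. The remaining marker, COL1A2, lay at 1.83 to 15.5, while COL1A1 stood at 41166.1 to 96681.8. Blood cell markers summed to 12.5 to 48.6, and endothelial markers to 47.9 to 142.7. Epithelial markers, carried by KRT8 and KRT18, summed to 26594.6 to 27633.2 in the treated control libraries and to 8933.6 to 14126.9 in the other 7. The other 4 epithelial markers did not follow: KRT14 was 490.8 in the untreated control library and 122.3 to 133.1 in the treated ones, EPCAM was 142.5 and 50.2 to 73.8, KRT5 was 26.3 and at most 1.23, and CDH1 was 14.5 and 2.31 to 32.6. The part of these markers in the results of the treated control libraries was not tested. The response to nutlin-3a in the control line also varied with transcript length. Across 14260 genes with annotation, which are not independent, the log2 change had a Spearman correlation of -0.429 with spliced length in the control line and -0.024 in the shARVCF lines. Results of the members in the treated control libraries are therefore given also with a spline trend on length and GC content removed. In bulk RNA, fewer expressing cells and less RNA per cell cannot be told apart.

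Per kilobase of the longest transcript, TGFB1 was the most abundant member in every group, at 2186.2 scaled fragments per kb in the untreated control library and 2211.9 ± 204.1 (SD, n = 3) in the untreated shARVCF lines. ID1 and ID3 were the next 2 in every group, at 848.9 ± 67.2 and 629.0 ± 55.4 per kb in the untreated shARVCF lines. TGFB2 was next there, at 394.2 ± 42.9 per kb. SKIL, TGFBI and TGFBR1 followed at 262.1 ± 21.5, 260.5 ± 16.9 and 242.9 ± 24.7 per kb and did not differ beyond their spread. ID2 and SMAD7 were the lowest, at 123.6 ± 33.4 and 103.1 ± 5.35 per kb, again within their spread.

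**Figure D1:**
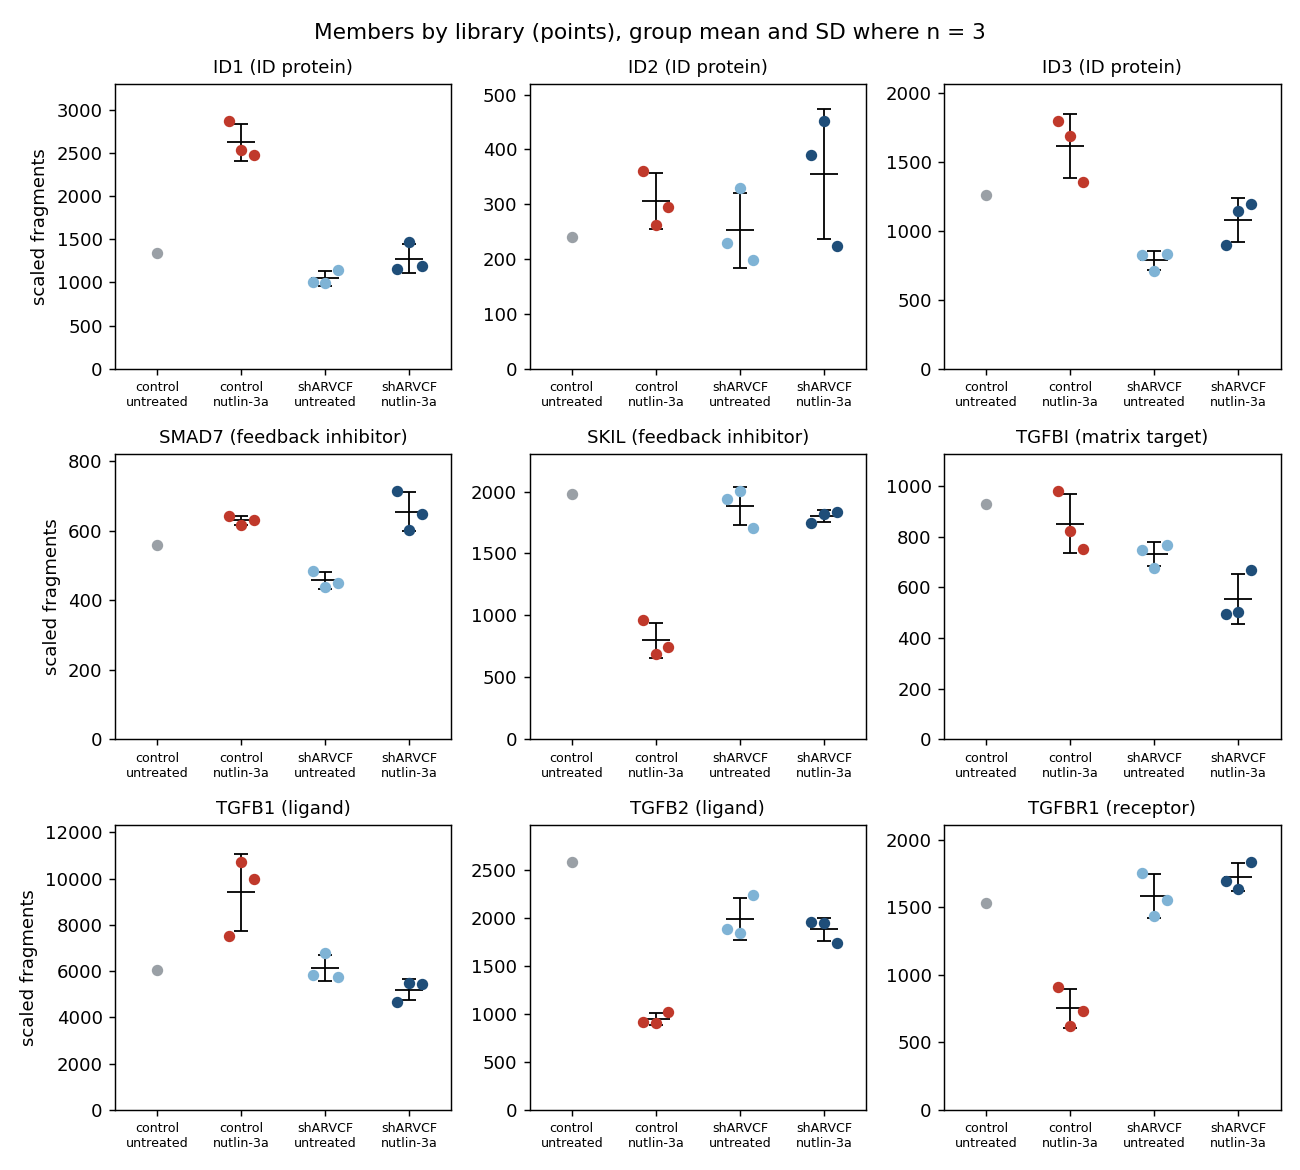
Scaled fragments (vertical axes, starting at 0) of the 9 genes in each of 10 libraries (points), by shRNA and treatment, with the mean and SD where n = 3. SKIL, TGFB2 and TGFBR1 sit lowest in the 3 treated control libraries, where ID1 and TGFB1 sit highest.

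In the 3 shARVCF lines, nutlin-3a raised SMAD7 and ID3 and lowered TGFBI, and the other 6 members did not pass the test. These 3 of 9 members compare with 42.8% of all 14955 genes called in the same comparison. The median log2 change of the 9 was 0.13, against -0.00 over all genes. The same 3 members passed with the length and GC trend removed, where 45.2% of 14260 genes were called.

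SMAD7, the feedback inhibitor, gave 483.4, 438.3 and 448.4 scaled fragments in untreated lines 1, 2 and 3 and 713.0, 601.3 and 648.9 in the treated ones. The groups did not overlap, and the lines rose by similar factors of 1.47, 1.37 and 1.45. The log2 change was 0.52 ± 0.10 (SE), a 1.43-fold increase with an adjusted p of 0.00119 (limma). It was 0.50 with the length and GC trend removed.

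ID3 gave 824.7, 706.9 and 829.1 in the untreated lines and 900.2, 1139.7 and 1193.2 in the treated ones. All treated values lay above all untreated values, with a smaller factor in line 1 (1.09) than in lines 2 and 3 (1.61 and 1.44). The log2 change was 0.45 ± 0.13 (SE), or 1.36-fold, with an adjusted p of 0.0178 (limma). The call was lost without untreated line 2, treated line 2 or treated line 3, with adjusted p of 0.0718, 0.0625 and 0.0659 (limma).

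TGFBI, the matrix protein, gave 748.8, 676.8 and 766.2 in the untreated lines and 493.8, 501.0 and 668.0 in the treated ones. Every treated value was below every untreated value, and treated line 3 lay nearest to them. TGFBI fell by 0.41 ± 0.14 (SE) on the log2 scale, 1.33-fold, with an adjusted p of 0.0286 (limma). This call was lost without untreated line 1 or 3, or treated line 1 or 2, with adjusted p of 0.0758, 0.0788, 0.102 and 0.103 (limma). It was also lost without trended and robust moderation, with an adjusted p of 0.0609 (limma).

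ID1 gave 1007.0, 991.3 and 1141.9 in the untreated shARVCF lines and 1160.3, 1467.2 and 1195.1 in the treated ones. The groups did not overlap, with a log2 change of 0.28 ± 0.11 (SE) and an adjusted p of 0.0596 (limma). ID2 overlapped between groups, at 229.6, 328.8 and 198.2 untreated and 389.3, 452.2 and 224.3 treated. Within each line the treated ID2 value was the higher, by factors of 1.69, 1.37 and 1.13, and its adjusted p was 0.178 (limma). With the line as a replicate block, which compares each line with itself, ID1 and ID2 passed at adjusted p of 0.0427 and 0.0239 (limma), and 5 members were called in place of 3. ID1 also passed under upper-quartile and relative log expression scaling (adjusted p = 0.0256 and 0.048, limma), and without untreated line 3 or treated line 1 (adjusted p = 0.0421 and 0.0428, limma). Without treated line 3, the ID2 log2 change was 0.77 with an adjusted p of 0.0131 (limma). ID2-AS1 overlaps ID2 exons on the opposite strand, and its values were at most 72.3.

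The ligands, the receptor and SKIL did not pass the test in the shARVCF lines. TGFB1 gave 5847.8, 6775.1 and 5751.4 untreated and 4659.4, 5491.5 and 5431.1 treated, groups that did not overlap, with a log2 change of -0.24 ± 0.13 (SE). TGFB2 gave 1888.7, 1845.9 and 2240.7 untreated and 1963.8, 1946.7 and 1746.6 treated, overlapping groups with a change of -0.08 ± 0.10 (SE). TGFBR1 gave 1755.8, 1438.4 and 1553.1 untreated and 1695.3, 1637.4 and 1836.4 treated. SKIL gave 1936.9, 2001.7 and 1708.4 untreated and 1748.4, 1821.8 and 1837.8 treated. The log2 changes of TGFBR1 and SKIL were 0.13 ± 0.13 and -0.06 ± 0.12 (SE), no larger than about their own errors. In all, 5 members had groups without overlap, against 54.9% of all genes.

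In the control line, ID1 and TGFB1 were higher and SKIL, TGFB2 and TGFBR1 lower under nutlin-3a in the deposited scaling. These 5 of 9 members compare with 57.1% of all genes called. The untreated side is 1 library, whose spread is taken from the other groups. With the length and GC trend removed, 1 member, TGFB2, stayed past the threshold, against 49.9% of 14260 genes.

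TGFB2 stood at 2590.0 in the untreated control library and at 914.8, 910.8 and 1024.3 in the treated ones. The treated libraries were all far below the untreated one and close to each other. TGFB2 fell by 1.45 ± 0.14 (SE) on the log2 scale, 2.73-fold, with an adjusted p of 3.72e-06 (limma). With the trend removed it fell by 0.46 ± 0.16 (SE), with an adjusted p of 0.0287 (limma). TGFB2-OT1, a noncoding transcript on the same strand whose exons overlap those of TGFB2, gave 15.6, 91.0 and 27.3 in the treated control libraries and at most 0.0186 in the other 7. Adding it to TGFB2 gave 930.5, 1001.8 and 1051.5, still below every other library.

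SKIL stood at 1984.0 untreated and at 959.8, 692.3 and 741.2 treated in the control line. It fell by 1.33 ± 0.17 (SE) on the log2 scale, 2.51-fold, with an adjusted p of 2.98e-05 (limma), and by 0.003 with the trend removed. TGFBR1 stood at 1529.6 untreated and at 908.5, 620.7 and 729.1 treated. It fell by 1.04 ± 0.19 (SE), 2.06-fold, with an adjusted p of 0.00043 (limma), and the log2 change was 0.07 with the trend removed. For both genes the treated libraries lay well below the untreated one, and neither call held after the trend was taken out. SKIL is the longest member, at 7182 spliced bases and 33.4% GC, and TGFBR1 is next, at 6516 bases and 39.0% GC, against medians of 3368 bases and 48.8% over the genes tested. Among those genes SKIL lay at percentile 0.2 of GC content and 88.6 of length. Its value with the trend removed therefore comes from the edge of the GC range.

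ID1 stood at 1339.6 untreated and at 2871.9, 2531.9 and 2473.4 treated in the control line. Its log2 change was 0.97 ± 0.16 (SE), 1.96-fold, with an adjusted p of 0.000199 (limma), and 0.17 ± 0.14 with the trend removed, with an adjusted p of 0.348 (limma). TGFB1 stood at 6053.6 untreated and at 7518.8, 10727.8 and 9964.7 treated. Its log2 change was 0.62 ± 0.19 (SE), 1.54-fold, with an adjusted p of 0.0128 (limma), and 0.19 with the trend removed. Within the first library series, which has 1 treated control library, the TGFB1 change was 0.31 with an adjusted p of 0.167 (limma). ID1 is the shortest member, at 1233 bases and 58.6% GC, and TGFB1 the richest in GC, at 63.5% over 2769 bases. ID3, which was not called in the control line, is close to ID1, at 1251 bases and 57.2% GC.

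The other 4 members were not called in the control line. ID3 gave 1261.0 untreated and 1796.2, 1685.8 and 1352.0 treated, with a log2 change of 0.34 ± 0.19 (SE). That change was -0.41 with the trend removed, and 0.51 with an adjusted p of 0.0299 (limma) under upper-quartile scaling. ID2 gave 240.0 untreated and 361.0, 261.4 and 294.8 treated, a log2 change of 0.34 ± 0.37 (SE). SMAD7 gave 557.4 untreated and 642.8, 615.6 and 630.7 treated, a narrow range with a log2 change of 0.18 ± 0.14 (SE). TGFBI gave 928.4 untreated and 979.3, 822.8 and 750.3 treated, on either side of the untreated value. The log2 changes of ID2, SMAD7 and TGFBI were -0.002, 0.25 and -0.24 with the trend removed, also not called.

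The ratio of the ligands also differed between libraries. Per unit of transcript length, TGFB1 exceeded TGFB2 by a factor of 4.27 in the untreated control library and of 15.0, 21.5 and 17.8 in the treated ones. The factor was 5.65, 6.7 and 4.68 in the untreated shARVCF lines and 4.33, 5.15 and 5.67 in the treated ones. The treated control libraries stood apart from the other 7 in this ratio. The log2 change of the ratio under nutlin-3a in the control line was 2.07 in the deposited scaling and 0.65 with the trend removed.

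**Figure D2:**
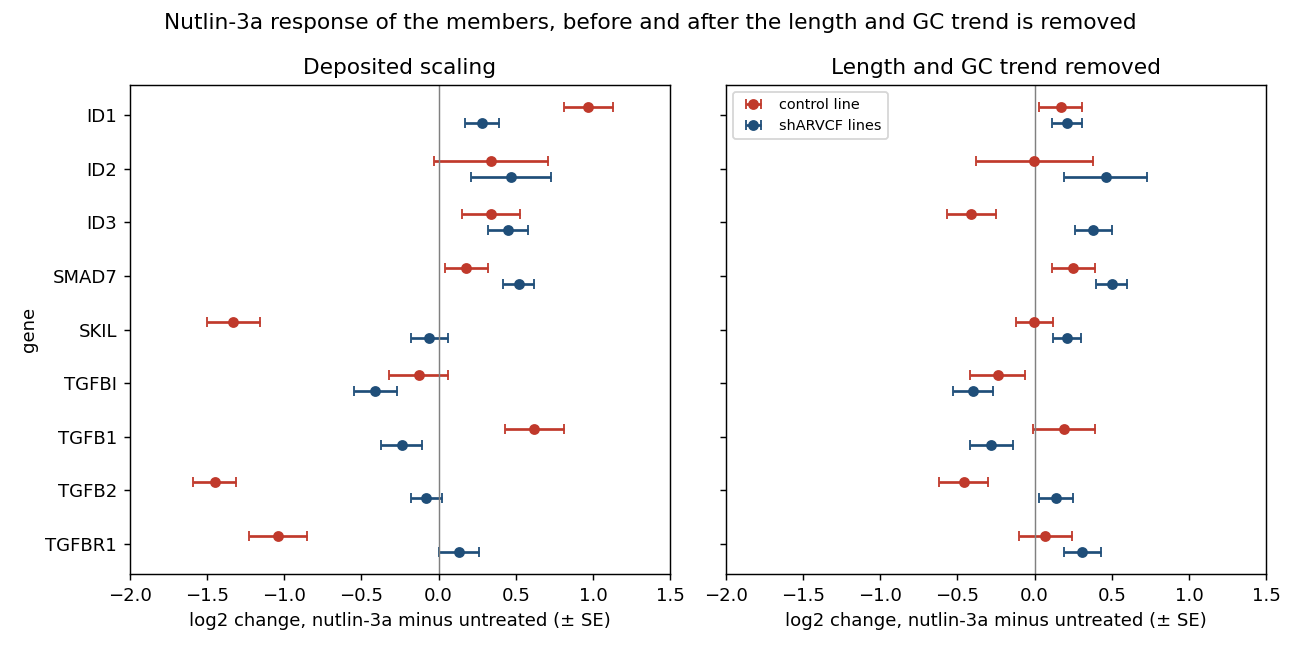
Log2 change under nutlin-3a with its SE (horizontal axis) for each of the 9 genes, in the control line and the shARVCF lines, with the deposited scaling (left) and with the length and GC trend removed (right). SKIL moves from -1.33 to -0.003 in the control line, while SMAD7 stays at 0.52 and 0.50 in the shARVCF lines.

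**Figure D3:**
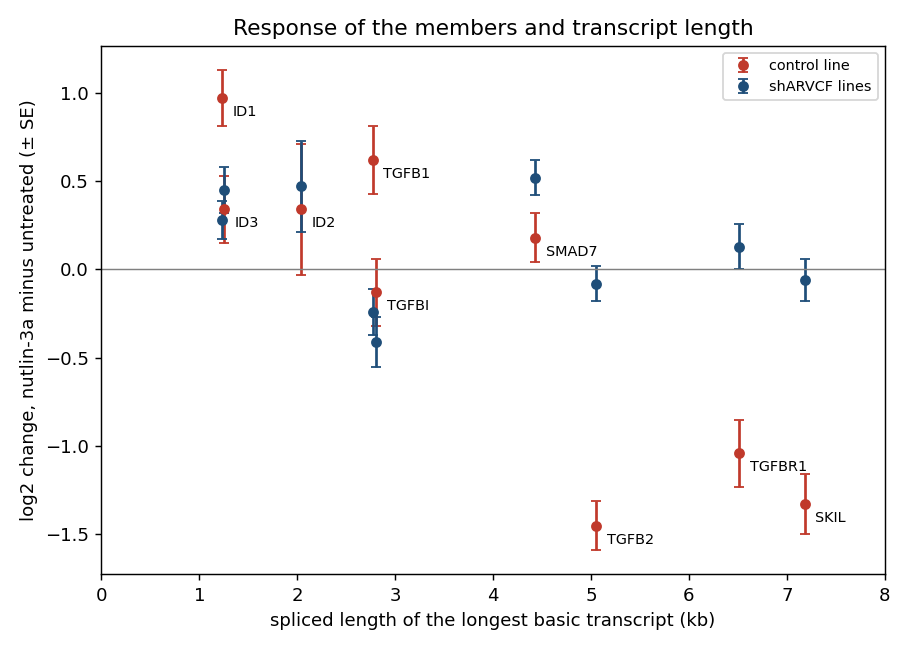
Log2 change under nutlin-3a with its SE (vertical axis) against the spliced length of the longest transcript in kb (horizontal axis) for the 9 genes, in the control line and the shARVCF lines. In the control line with the deposited scaling the 3 longest members, TGFB2, TGFBR1 and SKIL, are the 3 that were called lower.

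Under nutlin-3a, 7 of 9 members differed between the shARVCF lines and the control line, against 58.4% of all genes. SKIL, TGFB2 and TGFBR1 were higher in the shARVCF lines, against 32.3% of genes called higher, and ID1, ID3, TGFBI and TGFB1 were lower, against 26.1%. With the length and GC trend removed, ID1 and TGFBI remained called, 2 of 9 against 38.9%. Values of the 7 members did not overlap between the groups, as for 64.1% of all genes. Each treated line is set against the same 3 control libraries that served above, so these differences are not independent of the control line's response.

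TGFBI was 1.54-fold lower in the treated shARVCF lines, at 554.3 ± 98.6 against 850.8 ± 117.0 scaled fragments (SD, n = 3 each). The log2 difference was -0.62 ± 0.14 (SE), with an adjusted p of 0.00179 (limma), and -0.48 ± 0.13 with the trend removed, with an adjusted p of 0.0115 (limma). ID1 was 2.07-fold lower, at 1274.2 ± 168.0 against 2625.7 ± 215.2 (SD, n = 3 each). Its log2 difference was -1.05 ± 0.11 (SE), with an adjusted p of 6.2e-06 (limma), and -0.30 ± 0.10 with the trend removed, with an adjusted p of 0.0305 (limma). These were the matrix gene and the most abundant ID gene per kilobase.

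The remaining 5 calls ended when the trend was removed. ID3 was 1.49-fold lower in the treated shARVCF lines (log2 -0.58 ± 0.13, SE), and the difference was 0.11 with the trend removed. TGFB1 was 1.79-fold lower (log2 -0.84 ± 0.13), and the difference was -0.36 ± 0.14 with an adjusted p of 0.0643 (limma) with the trend removed. SKIL was 2.28-fold higher (log2 1.19 ± 0.12), TGFBR1 2.31-fold higher (log2 1.21 ± 0.13) and TGFB2 1.98-fold higher (log2 0.99 ± 0.10). With the trend removed these 3 log2 differences were 0.03, 0.22 and 0.16. SMAD7 stood at 654.4 ± 56.1 against 629.7 ± 13.6 (SD, n = 3 each), a log2 difference of 0.05 ± 0.10 (SE) that was -0.06 under upper-quartile scaling. ID2 gave a difference of 0.17 ± 0.26 (SE). SMAD7 and ID2 gave 0.04 and 0.50 with the trend removed, neither called.

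Without nutlin-3a, 0 of 9 members were called between the shARVCF lines and the lone control library (limma), against 0.0201% of all genes. An unadjusted p under 0.05 was found for 3 members, ID1, ID3 and TGFB2, with log2 differences of -0.36, -0.68 and -0.38, and for 1.58% of all genes. ID1, ID3, SMAD7, TGFBI and TGFB2 were below the control library in all 3 lines, and 39.9% of all genes lay on one side of it in all 3. ARVCF, the knockdown target, was not called here either, at a log2 difference of -0.93. The lack of calls against 1 library therefore does not show equal levels. ID3 had the smallest unadjusted p among the 9 members in this limma fit, 0.00359, from 824.7, 706.9 and 829.1 in the lines against 1261.0 in the control.

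The nutlin-3a effects themselves differed between the shARVCF lines and the control line for 5 of 9 members, against 31.8% of all genes. The difference, shARVCF minus control, was 1.37 ± 0.17 (SE) on the log2 scale for TGFB2 and 1.27 ± 0.21 for SKIL, with adjusted p of 0.000165 and 0.000777 (limma). It was 1.17 ± 0.23 for TGFBR1, with an adjusted p of 0.00234 (limma). It was -0.69 ± 0.19 for ID1 and -0.86 ± 0.23 for TGFB1, with adjusted p of 0.0158 and 0.0128 (limma). With the trend removed these values were 0.60, 0.22, 0.23, 0.04 and -0.47, and none of the 5 passed the threshold. ID3 then passed, with 0.79 ± 0.20 (SE) and an adjusted p of 0.0229 (limma), against 13.7% of all genes called, where its difference in the deposited scaling was 0.10 ± 0.23.

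Beyond the 9 members, 114 further genes were listed by their place in the pathway, of which 95 were tested. In the shARVCF lines 28 were higher and 25 lower under nutlin-3a, and in the control line 22 were higher and 41 lower. With the trend removed the control line had 33 higher and 21 lower. Across all genes 21.0% were called higher and 21.7% lower with knockdown, and for the control line the shares were 25.1% and 32.0%. With the trend removed, 3497 of 14260 genes were called higher and 2955 lower in the shARVCF lines. In the control line these numbers were 4096 and 3024. Counts in the lists below are to be read beside these shares.

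Other TGF-beta target genes rose more often than they fell in both arms. The list was chosen with earlier results of these data known, so its counts only describe it. PMEPA1, LTBP2 and SMAD3 are counted here and in other lists. Of 24 tested, 13 rose and 2 fell in the shARVCF lines, with a median log2 change of 0.69, and 13 rose and 5 fell in the control line, with a median of 0.85. The control line had 15 higher and 2 lower with the trend removed, with a median of 1.11. ACTA2, which encodes smooth muscle actin, went from 70.0, 114.0 and 161.1 to 1081.9, 916.3 and 990.4 scaled fragments in lines 1, 2 and 3. Its log2 change was 3.18 with knockdown and 3.57 in the control line (limma, adjusted p = 9.8e-07 and 5.08e-06). CYR61, a matricellular protein gene, rose by 1.82 and 2.19, and BHLHE40, a transcriptional repressor, by 1.72 and 1.61. These 3 genes kept their calls with the trend removed.

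The other SMADs, the inhibitory SMAD6 among them, fell or did not pass. Of 7 other SMADs, 0 rose and 2 fell in the shARVCF lines. In the control line 7 of 7 fell in the deposited scaling, against 32.0% of all genes. With the trend removed 2 of 7 fell, against 3024 of 14260 genes. SMAD6, the inhibitory SMAD of the BMP branch, went from 257.7 to 47.1, 46.4 and 49.2 in the control line and from 194.8, 262.8 and 238.7 to 55.7, 61.1 and 50.4 in the shARVCF lines. It fell by 2.41 and 2.03 on the log2 scale (limma, adjusted p = 7.33e-06 and 1.99e-06), with a log2 change of -2.45 in the control line when the trend was removed, while its relative SMAD7 rose in the shARVCF lines. SMAD1, a receptor SMAD of the BMP branch, went from 509.0 to 220.6, 207.2 and 217.6 in the control line and lay at 474.6 to 561.4 in the treated shARVCF lines. Its effect differed between the arms by 1.22 in the deposited scaling and 1.3 with the trend removed (limma, adjusted p = 0.000669 and 0.00117).

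Among 8 other TGF-beta and activin ligands, 1 rose and 3 fell in the control line, or 2 and 2 with the trend removed. In the shARVCF lines 2 rose and 4 fell. GDF15, a divergent ligand induced by stress, rose by 3.71 in those lines and 4.60 in the control line (limma, adjusted p = 2.29e-05 and 3.65e-05), or 3.67 in the latter with the trend removed. INHBA, the activin A subunit, rose by 1.44 in the shARVCF lines. Its control-line log2 change was 0.03 in the deposited scaling and 1.11 with the trend removed, where it passed (limma, adjusted p = 0.00434). TGFB3, the remaining TGF-beta isoform, fell by 1.10 in the shARVCF lines and by 1.52 in the control line, or 1.68 with the trend removed. Of 13 other receptors and coreceptors, 2 rose and 3 fell in the shARVCF lines. In the control line 0 rose and 7 fell in the deposited scaling, and 4 rose and 1 fell with the trend removed. BMPR1A, a type I BMP receptor, fell in the control line under both, by 2.07 and 0.89, and in the shARVCF lines by 0.37 and 0.33.

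Of 10 genes of TGF-beta latency and activation, 3 rose and 2 fell in the shARVCF lines, and 2 rose and 5 fell in the control line, or 4 fell with the trend removed. LTBP1, which tethers latent TGF-beta to the matrix, fell by 0.94 and 2.16, and THBS1, an activator of latent TGF-beta, by 0.72 and 2.04. These control-line changes were -1.59 for LTBP1 and -1.12 for THBS1 with the trend removed, and both remained called. Of 15 intracellular regulators, 2 rose and 5 fell in the control line, or 7 rose and 2 fell with the trend removed. In the shARVCF lines 5 rose and 2 fell. PMEPA1, a feedback inhibitor that binds SMADs, rose by 0.76 there and 1.00 in the control line, or 1.33 with the trend removed. The E proteins, which the ID proteins bind, fell in both arms: 3 of 3 were called lower in each, also with the trend removed. TCF4 went from 1785.7 to 313.0, 291.4 and 280.7 in the control line and from 2067.8, 1714.1 and 1371.5 to 1106.5, 1029.9 and 880.7 in the shARVCF lines. The TCF4 effect differed by 1.84 between the arms, and by 0.77 with the trend removed (limma, adjusted p = 0.000224 and 0.0386).

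Of 6 BMP ligands, 2 rose and 3 fell in each arm, or 2 and 2 with the trend removed, and BMP2, an osteogenic ligand, rose by 1.16 in the shARVCF lines. Of 7 extracellular antagonists, 2 rose and 3 fell in each arm, or 2 and 2 with the trend removed. FSTL3, which binds activins, rose by 1.04 in the shARVCF lines and by 1.55 in the control line, or 1.03 in the latter with the trend removed. Of 7 other BMP target genes, 1 rose and 3 fell in the shARVCF lines. In the control line 2 rose and 2 fell, or 1 and 2 with the trend removed. SMAD6 and BAMBI, both called lower in the shARVCF lines, are also counted in lists above. RUNX2, the master transcription factor of osteoblasts, fell by 1.61 in the control line and by 0.72 with the trend removed. It also fell in the shARVCF lines, by 0.39, and by 0.27 with the trend removed, where it was not called.

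Between the arms under nutlin-3a, 41 of the 95 further genes were higher in the shARVCF lines and 20 lower, against 32.3% and 26.1% of all genes. With the trend removed they became 15 and 18 of 95, against 2267 and 3284 of 14260 genes. FBN1, the fibrillin that anchors latent TGF-beta, was higher by 1.77 and ITGAV, the integrin chain that releases it, by 2.02 (limma, adjusted p = 6.73e-08 and 3.17e-07), and both kept their calls at 0.74 and 0.97. TIMP3, a protease inhibitor, was lower by a log2 difference of -0.59, or -1.07 with the trend removed. The nutlin-3a effects differed for 27 genes upward and 5 downward, against 19.3% and 12.5% of all genes. With the trend removed they differed for 5 in each direction, against 764 and 1184 of 14260 genes. Without nutlin-3a, 0 of the 95 were called (limma), and 1 had an unadjusted p under 0.05.

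**Figure D4:**
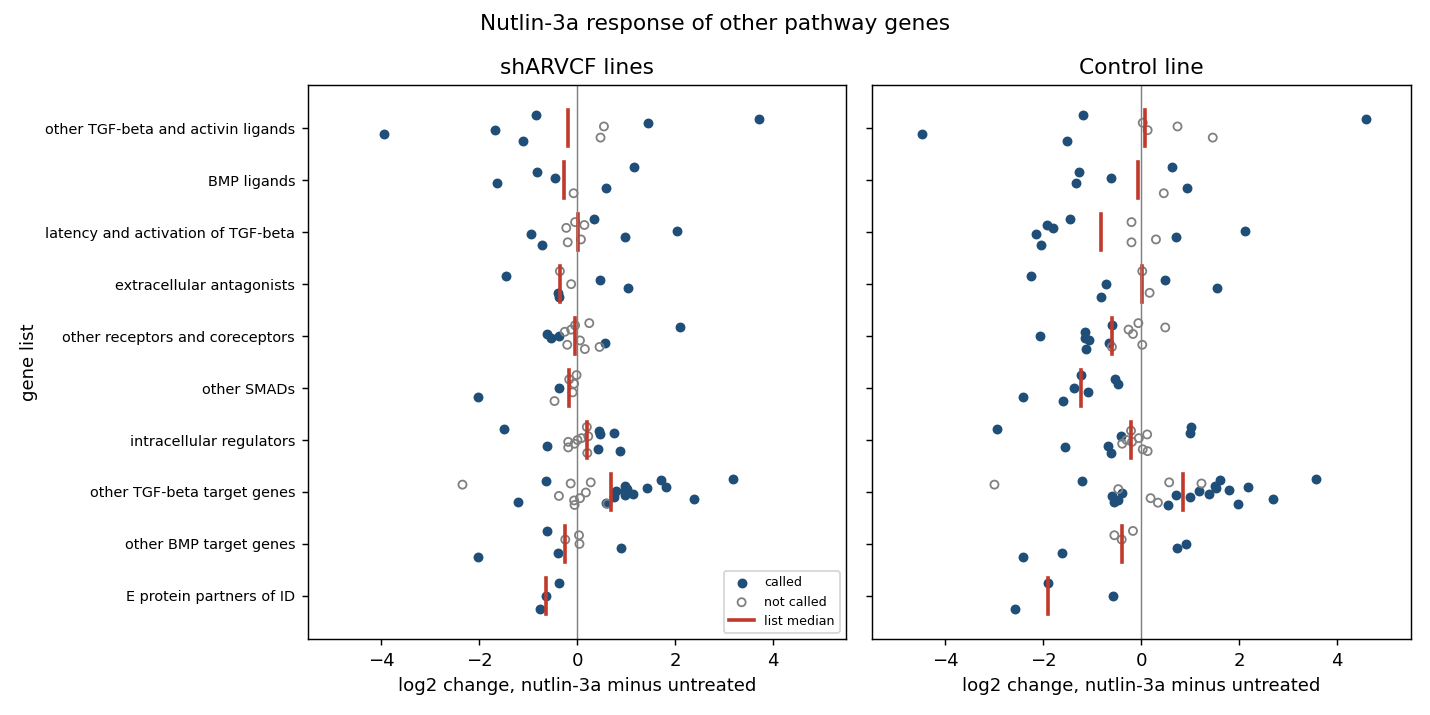
Log2 change under nutlin-3a (horizontal axes) of each tested gene in the lists of further pathway genes (rows), in the shARVCF lines (left) and the control line (right), with filled points for genes called, open points for the others and a bar at each list's median. Other TGF-beta target genes have medians of 0.69 and 0.85, and other SMADs have medians of -0.16 and -1.24.

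The members also resembled other genes across the 10 libraries, a description over points that share the same cell line and include the 3 treated control libraries with the length trend. SKIL was most like SPTY2D1 and RAI14 (Pearson r of 0.997 and 0.996 over 10133 genes searched), and TGFBR1 was most like DIS3 and AP1AR (r of 0.992 and 0.991). ID1 was most like SH2B2 and MAPK12 (r of 0.988 and 0.987), and TGFB2 was most like EPB41L3 and MAP1B (r of 0.982 and 0.978). TGFB1 was most like C6orf203 and PDHA1 (r of 0.980 and 0.973) and SMAD7 was most like TMCC1 and PLD5 (r of 0.970 and 0.960). ID3, TGFBI and ID2 had lower best values, of 0.945 (TUT1), 0.946 (CHCHD2) and 0.877 (SMIM14). Between members, SKIL had r of 0.97 with TGFBR1 and 0.93 with TGFB2, and ID1 and ID3 had r of 0.90. TGFB1 and TGFBR1 had r of -0.95, and ID1 and SKIL had r of -0.92.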

How the data were processed

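Total RNA was extracted with an RNeasy kit and made into libraries with a TruSeq Stranded mRNA kit, per the labels' protocols. The submitters' processing notes name bcl2fastq 1.8.3, HISAT2 2.1.0, Cuffnorm 2.2.1 and hg38. For the gene annotation and the scaling method, the sources used here give no name. The deposited values are a signal, read here as fragments per gene estimated and scaled by the authors; they are not whole counts, so no count model was used. The members and lists were chosen with earlier results of these data known.

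Values were analysed as log2(value + 1) with limma 3.58.1 in R 4.3.3: 4 group means over all 10 libraries, trended and robust empirical Bayes, 14955 of 26040 genes (reaching 10 in 3 or more libraries), Benjamini-Hochberg adjustment over all of them and calls at 0.05. Fold changes are on this scale. Residual degrees of freedom were 6. All 9 members were named. From each pathway list, genes were named among the 4 called with the smallest adjusted p. The 2 genes most like a member had a mean of at least 100.

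GENCODE 29 length and GC content matched 24016 symbols by name. Their trend was removed with splines of 4 degrees of freedom in 14260 genes. The labels give each shARVCF line 1 untreated and 1 treated library. Residuals of the same line correlated at 0.275, 0.288 and 0.327 over 14955 genes, and the block changed the calls named in the text. Depth in reads is unknown. Alternatives were other pseudocounts, filters, scalings, library series, the line as a block and each library left out.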

Additional observations from a re-analysis of the deposited data

Results flagged for a closer look

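The effect of nutlin-3a differed between the shARVCF lines and the control line for 5 members by the interaction test of limma. The log2 differences, shARVCF minus control, were -0.69 for ID1 (adjusted p = 0.0158), 1.27 for SKIL (adjusted p = 0.000777), -0.86 for TGFB1 (adjusted p = 0.0128), 1.37 for TGFB2 (adjusted p = 0.000165) and 1.17 for TGFBR1 (adjusted p = 0.00234). With the length and GC trend removed they were 0.04, 0.22, -0.47, 0.60 and 0.23, and none of the 5 passed. Within the first library series the TGFB1 difference was -0.55, with an adjusted p of 0.077 (limma). No group has 4 libraries, so no library was tested for standing apart from its group.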

How the results depend on the processing

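Over all alternatives, 927 values of members kept their direction and side of the threshold, 23 were no longer past it, 10 came past it and 30 changed sign. With the length and GC trend removed, members called became 1 in the control line, 2 between arms under nutlin-3a and 1 for the difference of effects, and genes called became 5551 and 1948 in the last 2 comparisons. Between untreated arms the 3 genes called became 8 and 0 with pseudocounts of 0.1 and 10, 0 in the first library series, 0 with the trend removed and 5 without trended and robust moderation. With the line as a replicate block, 5 members were called in the shARVCF lines. The block, possible for the nutlin-3a effects and their difference, gave 7157, 9239 and 5764 genes called. Leaving out each library gave 1 to 3 members in the shARVCF lines and 5 to 6 in the control line, and 1 to 4 genes between untreated arms.

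Signs changed as follows. In the shARVCF lines SKIL was 0.21 and TGFB2 0.14 with the trend removed, and TGFB2 ranged from -0.13 to 0.01 over the libraries left out, above 0 without untreated line 3. In the control line ID2 was -0.002, ID3 -0.41 and TGFBR1 0.07 with the trend removed, and TGFBI was 0.03 with upper-quartile scaling and 0.08 with the library series as a term or the first series alone. Between arms under nutlin-3a, ID3 was 0.11 with the trend removed. ID2 was -0.08 by either use of the series and -0.04 to 0.47 over the libraries left out. SMAD7 was -0.001, -0.06 and -0.01 with trimmed mean, upper-quartile and relative log expression scaling, and -0.01 without treated line 1. Between untreated arms ID2 was -0.17 to 0.19 and TGFB1 -0.06 to 0.06 over the libraries left out, both lowest without untreated line 2, and TGFBR1 was -0.01 with the trend removed and -0.03 without untreated line 1. For the difference of effects ID1 was 0.04 with the trend removed. ID2 was -0.12 by either use of the series, and -0.07 to 0.43 over the libraries left out. ID3 was -0.02 with upper-quartile scaling, -0.06 by either use of the series and -0.02 to 0.23 over the libraries left out. The cause was not tested.

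The split of called genes, higher and lower, moved with scaling. In the control line it was 3752 and 4780, then 4651 and 4085 with upper-quartile scaling, 3275 and 5332 with library-size scaling and 4096 and 3024 with the trend removed. Between arms under nutlin-3a it was 4829 and 3902, then 4253 and 4683, 5515 and 3183, and 2267 and 3284 in the same order. For the difference it was 2893 and 1863, then 2493 and 2541 with upper-quartile scaling and 764 and 1184 with the trend removed.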
